A study of Mus musculus with 6 samples.

Results

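Origin licensing and DNA replication genes were followed in mouse haematopoietic stem cells 4 weeks after transplantation. The set has 44 members: the subunits of the origin recognition complex, the factors that load and activate the replicative helicase, the polymerases and their clamp, the enzymes of nucleotide supply, the factors that rebuild chromatin behind the fork, and regulators of entry into S phase. Members were matched to the array by gene symbol and each is represented by the brightest probe listed under its symbol (mean log2 intensity over the 6 arrays). A further 4 probes listed under older or clone names of Dtl, Gins2 and Mcm10 did not enter that choice. All 44 were found, through 91 probes, among 21946 named genes. The rule names them by symbol and uses measured values only to pick the probe. The list itself was chosen with earlier results of these data known.

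The 6 one-colour Illumina bead arrays hold 3 wt samples and 3 samples labelled Matn4-/-. Matn4 encodes matrilin-4, a secreted protein that links components of the matrix around cells. Bone marrow of donors that were wt, marked CD45.1.2, or Matn4-/-, marked CD45.2, was mixed in equal parts and given to CD45.1 recipients that had been irradiated with 2 doses of 500 rad. After 4 weeks the LSK CD150+ CD48- cells of each donor were sorted, so both genotypes were under the same transplantation stress and no untransplanted sample is analysed here. The labels give female C57/BL6 mice of 12 weeks. The design text calls the arrays biological replicates, without saying whether they came from separate recipients, and the p-values measure the spread between these samples. RNA was amplified from 2.5 ng before labelling. With 3 arrays a group, precision is limited throughout.

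Before S phase, the origin recognition complex marks sites on the DNA where CDC6 and CDT1 load the ring of MCM2 to MCM7, a step called licensing. CDC45 and the GINS complex turn the loaded ring into a moving helicase, and polymerases, primase, the sliding clamp PCNA and its loader RFC then copy the template. Many of these genes are transcribed by E2F factors at the passage from G1 to S. Long-term stem cells of the bone marrow rest in G0 for most of their life and enter the cycle after transplantation, which is why these genes are often used to describe their cycling. In RNA from pooled cells, fewer cycling cells and less RNA per cycling cell cannot be told apart.

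The promoter windows that follow run from 250 bases before to 50 bases after the annotated start (RefSeq, GRCm38.p6), written 5′ to 3′ on the strand of the gene. They are shown for Orc3, which had the widest difference between the genotypes, and for Mcm5 and Mcm6, whose differences were small. Capitals mark the E2F words TTTGGCGC, TTTCCCGC, TTTGCCGC and TTTCGCGC on either strand.
Orc3, chr4:34614893-34615192, minus strand: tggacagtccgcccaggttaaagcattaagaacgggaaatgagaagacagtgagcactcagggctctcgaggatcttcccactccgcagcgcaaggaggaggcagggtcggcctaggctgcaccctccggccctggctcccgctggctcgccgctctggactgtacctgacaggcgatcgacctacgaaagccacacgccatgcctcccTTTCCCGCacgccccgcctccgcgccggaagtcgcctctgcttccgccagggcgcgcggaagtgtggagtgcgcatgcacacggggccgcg
Mcm5, chr8:75109259-75109558, plus strand: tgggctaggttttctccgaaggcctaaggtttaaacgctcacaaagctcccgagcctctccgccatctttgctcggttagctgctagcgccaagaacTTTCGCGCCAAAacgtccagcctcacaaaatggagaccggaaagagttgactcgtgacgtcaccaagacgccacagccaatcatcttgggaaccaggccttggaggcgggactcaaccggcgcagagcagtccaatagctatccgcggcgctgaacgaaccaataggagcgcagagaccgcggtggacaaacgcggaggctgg
Mcm6, chr1:128359656-128359955, minus strand: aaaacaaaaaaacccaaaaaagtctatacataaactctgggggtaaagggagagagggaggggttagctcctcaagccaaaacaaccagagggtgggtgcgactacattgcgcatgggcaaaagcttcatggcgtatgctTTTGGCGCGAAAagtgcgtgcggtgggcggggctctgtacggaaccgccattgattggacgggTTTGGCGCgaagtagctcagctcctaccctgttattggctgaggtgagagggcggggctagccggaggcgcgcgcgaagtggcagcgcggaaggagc
In Mcm5 and at the first site of Mcm6, 2 words on opposite strands overlap. Mcm6 has a further word 47 bases before the start, and the word of Orc3 begins 41 bases before the start. Of the 44 members, 37 matched the promoter table, with 45 windows. At least 1 of the 4 words stood in 15 of these 45 windows (33.3%), against 2.26% of all 32851 promoter windows. The windows shown are therefore not typical of the members, since each holds a word. That of Ccne1, whose difference was smaller than those of Mcm5 and Mcm6, holds none. GGGCGG, the letters of a GC box, stood in 71.1% of member windows and 35.7% of all, CCAAT in 57.8% and 37.4%, and TTTGAA, the core of the element of late cell cycle genes, in 8.89% and 17.9%. Each word was searched on both strands, and matches of different words may overlap. A match is a description of the letters and not a bound site.

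The deposited values are intensities on a linear scale with the background still in them, so that differences of dim genes are understated. Background was read from 12 probes for genes of the Y chromosome, absent from female mice. Their highest reading on each array lay between 124 and 142, and a gene is called above background on an array where it exceeded that reading. The markers Kit, Slamf1, Procr, Mecom, Gata2, Tek, Meis1, Hoxa9 and Cd34 were above background on all 6 arrays, and Hlf on 1. Of the 3 genes listed for cells outside the sort gate, Cd48, which the sort excludes, and Il7r were above background on no array. The third, Flt3, was above it on all 6 (154 to 282). Lineage markers above background on all 6 arrays numbered 3 of 9 for neutrophils, 5 of 9 for erythroid cells, 1 of 7 for mast cells and basophils, 2 of 4 for B cells, 3 of 5 for T and NK cells, 3 of 7 for monocytes and dendritic cells and 4 of 6 for platelets and megakaryocytes. These lists are not limited to genes of mature cells. Matn4 itself did not separate the groups on its brightest probe (wt mean 282 ± 112, Matn4-/- mean 272 ± 90.5, SD, n = 3 each). No source used here says whether that probe lies within the deletion, so it does not check the labels. Matn4-/- replicate 3 stood apart, its mean Spearman correlation to the remaining arrays being 0.745, while that of each other array was 0.852 to 0.866. Of 12764 genes tested with limma, 7 passed the threshold (adjusted p under 0.05).

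None of the 44 replication genes passed that threshold. The test covered 41 of them, and 0 passed where 0.0548% of all genes tested did (0.00783% higher and 0.047% lower). The 41 split into 20 higher and 21 lower in Matn4-/- cells, and 46.7% of all genes tested were higher. Their median log2 difference (Matn4-/- minus wt) was -0.02, beside -0.01 over all genes tested. Both medians lay close to 0.

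The intervals show how large a difference the 6 arrays leave room for, on intensities that still hold the background. For dim members, such as Pcna (above background on 1 of 6 arrays) and Ccne1 (on 2), they do not bound the difference in RNA. For 38 of the 41 the 95% interval of the log2 difference lay within -0.5 and 0.5, as it did for 11621 of the 12764 genes tested. The exceptions were Orc3, E2f1 and Tk1. At an unadjusted p under 0.05 stood 2 members, Orc3 and Fen1, 1 higher and 1 lower, where 5.59% of all genes tested did (1.78% higher and 3.81% lower). The 3 wt and 3 Matn4-/- readings did not overlap for 5 of 41 members (12.2%), 2 higher and 3 lower, a share near the 10.5% of all genes tested (4.29% higher and 6.22% lower). Without Matn4-/- replicate 3 the readings did not overlap for 13 of 41 members (31.7%) and 23.2% of all genes, and 3 members, Orc3, Orc4 and Mcm2, stood at an unadjusted p under 0.05 (6.75% of all genes). Leaving out an array can raise the share without overlap but never lower it.

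**Figure D1:**
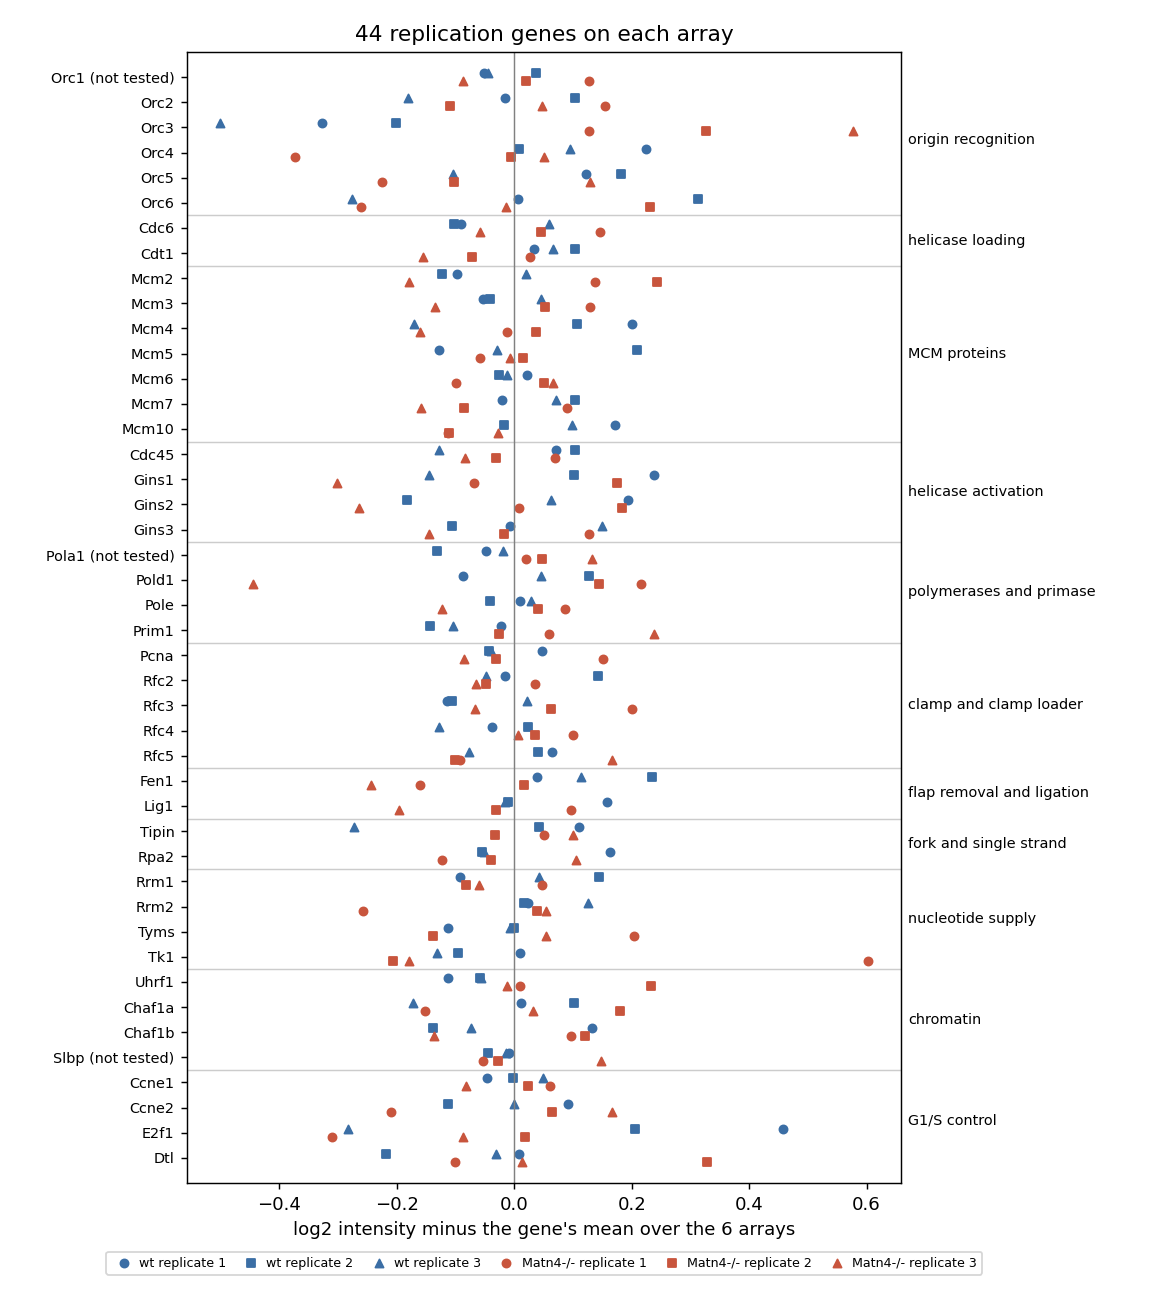
Deviation of each gene's log2 intensity from its own mean over the 6 arrays (x axis, log2 units) for the 44 replication genes (y axis, grouped by role), with 1 point per array, wt in blue and Matn4-/- in red. Most points lie within 0.2 of 0 in both genotypes, Orc3 has all 3 wt arrays to the left of all 3 Matn4-/- arrays, and Tk1 has Matn4-/- replicate 1 alone at 0.60.

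**Figure D2:**
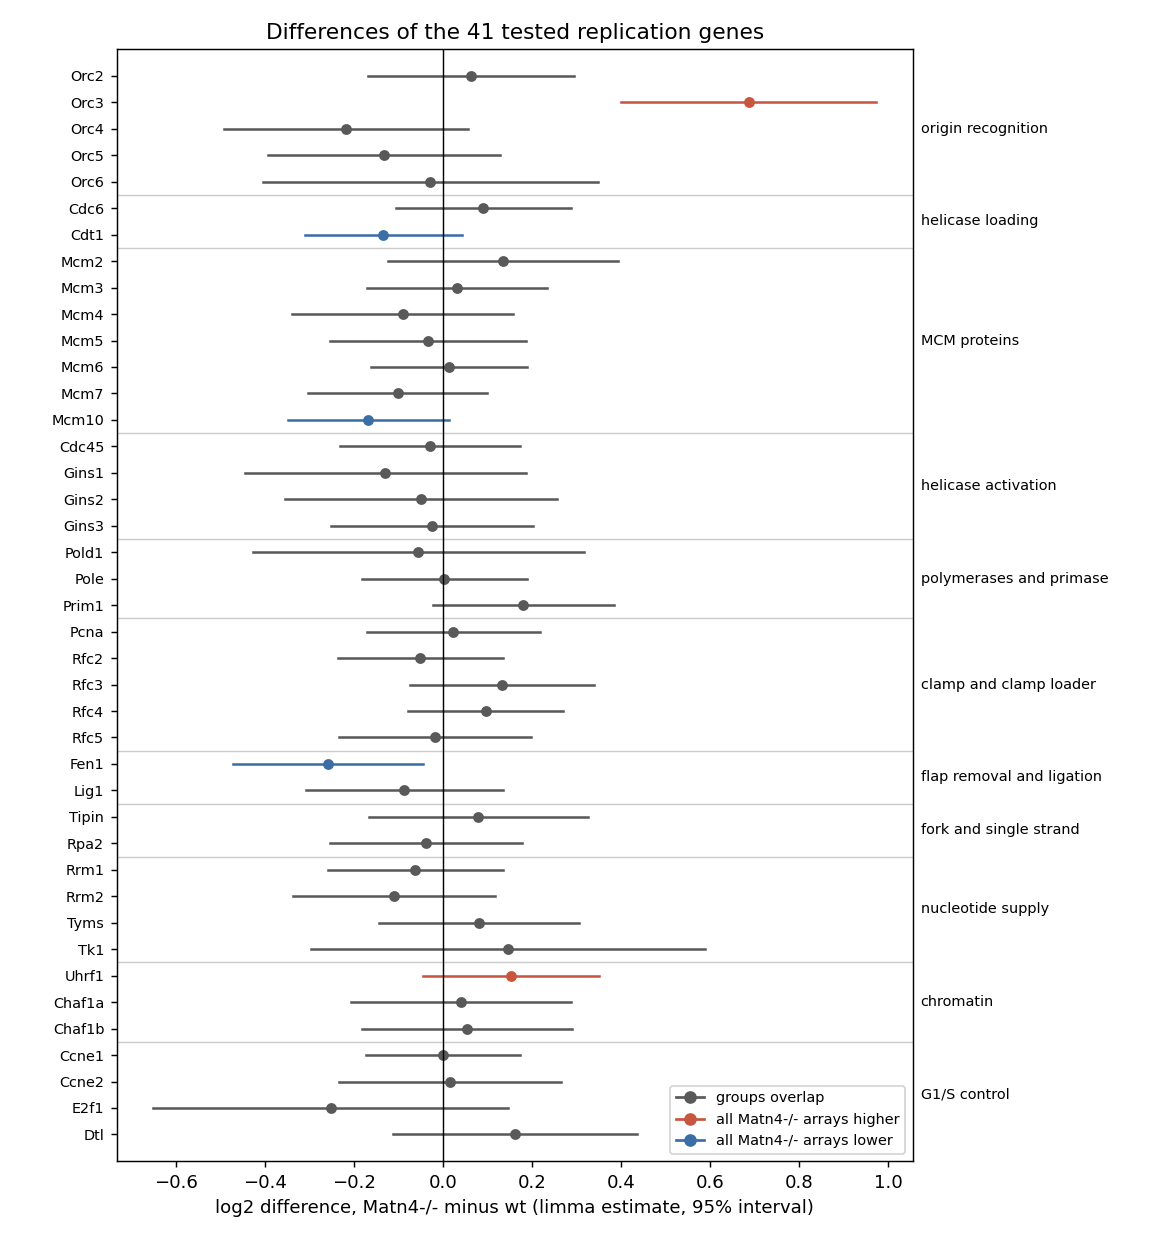
Log2 difference between the genotypes, Matn4-/- minus wt (x axis), for the 41 tested replication genes (y axis, grouped by role), with points for the limma estimate and bars for its 95% interval; colour marks genes whose readings do not overlap. The bars of all but Orc3 and Fen1 cross 0.

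Readings are given in the order of replicates 1 to 3. Orc3 was the member with the widest difference. It encodes a subunit of the origin recognition complex, and its single probe read 267, 291 and 237 in wt and 366, 420.1 and 499.5 in Matn4-/- cells. All 3 Matn4-/- readings lay above all 3 wt readings, and all 6 lay well above background. The group values were wt mean 265 ± 27.4, Matn4-/- mean 428 ± 67.3 (SD, n = 3 each), a log2 difference of 0.69 ± 0.13 (SE, 95% interval 0.40 to 0.97), or 1.61-fold. After adjustment over all genes tested it did not pass (limma adjusted p = 0.25), and over the 17 alternatives the adjusted p lay between 0.123 and 0.712. The log2 difference was 0.57 without Matn4-/- replicate 3 (adjusted p = 0.28), and 1.02 once the background was subtracted (adjusted p = 0.598). Orc3 lies on chromosome 4, whereas Matn4 lies on chromosome 2 and Ptprc, which encodes the CD45 antigen that tells the donors apart, on chromosome 1. The summed readings of the T and NK cell markers also kept the genotypes apart (898 to 943 in wt, 808 to 853 in Matn4-/- cells, 5 genes), and so did those of the platelet markers (1236 to 1296 and 1142 to 1224, 6 genes). Of the 5 T and NK genes, Cd3e and Cd3g, which define T cells, were above background on no array, and Cd8b1, Lat and Nkg7 on all 6. Readings did not overlap for Cd8b1 (wt mean 327, Matn4-/- mean 283) and Lat (185 and 155), as for 10.5% of all genes tested. Each platelet marker taken alone had overlapping readings. Among the remaining markers, all Matn4-/- readings lay above the wt readings for Car1 (wt mean 167, Matn4-/- mean 228), Fcer1a (134 and 162) and H2-Ab1 (228 and 266). The same held for Hlf, Cma1 and Ccr2, which were above background on at most 1 array. The stem cell markers Meis1 (488 and 416) and Cd34 (180 and 158) lay lower on all Matn4-/- arrays. The part of cells carrying these markers in the reading of Orc3 was not tested.

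None of the other subunits of the complex had groups that did not overlap. Orc4, also part of the core complex, read 370.2, 319 and 339 in wt and 245, 316 and 328 in Matn4-/- cells, with Matn4-/- replicate 1 lowest and the other readings overlapping. Its log2 difference was -0.22 (interval -0.49 to 0.06), and both other kept probes were lower by less (-0.09 and -0.01). The probe at -0.01 was above background on 1 of 6 arrays. Orc6, the smallest and most loosely held subunit, varied within each genotype, with readings of 186, 230.4 and 153 in wt and 155, 218 and 184 in Matn4-/- cells. Replicate 2 was the highest reading of Orc6 in both genotypes. Orc5 and Orc2 were above background on 3 and 4 arrays, with log2 differences of -0.13 and 0.06. Orc1, the subunit whose level follows the cell cycle in mammals, stood at or below background on all 6 arrays, at 110.2 to 128, and was not tested.

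**Figure D3:**
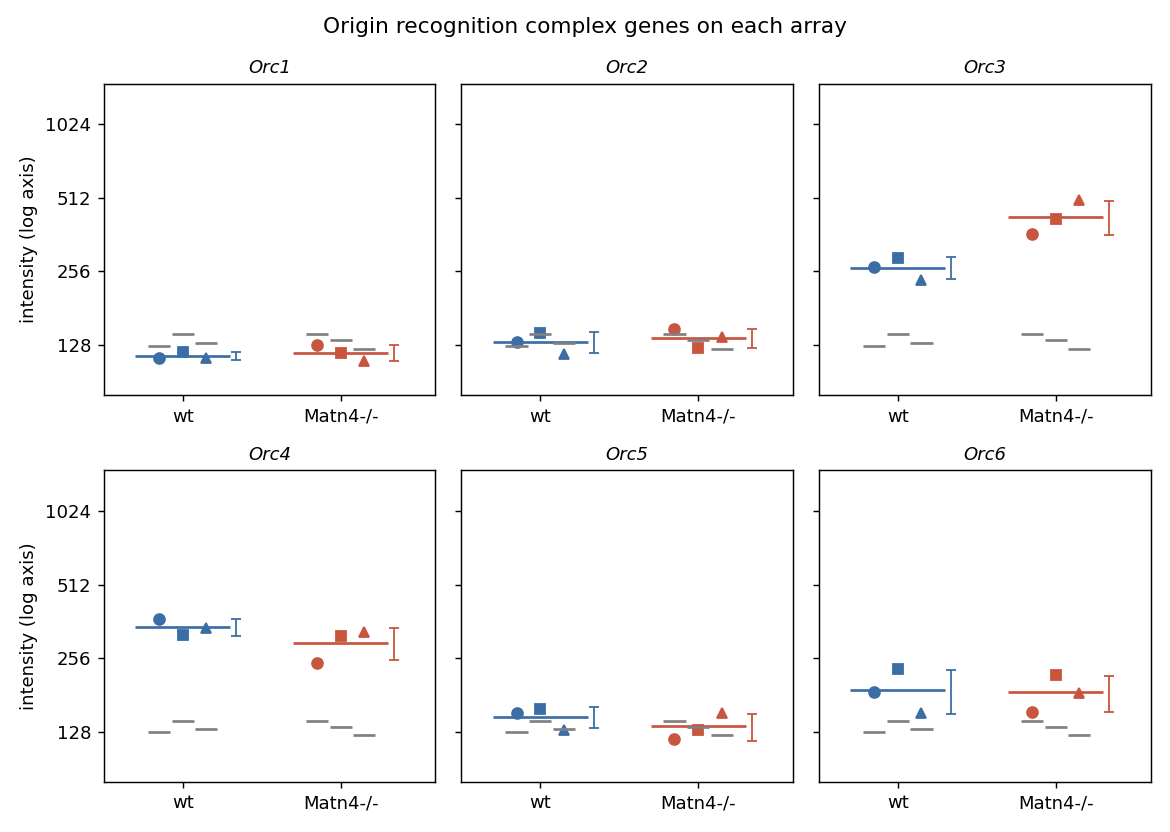
Intensity on a log axis (y) for the 6 origin recognition complex genes in wt (blue) and Matn4-/- cells (red), with 1 point per array, horizontal bars for the mean, error bars for the SD (n = 3 each) and grey ticks for the highest Y-linked reading of each array. Orc3 is the panel in which the genotypes separate, and Orc1 lies at or under the grey ticks throughout.

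Of the 2 loading factors, Cdt1 delivers the MCM ring to the complex and is held in check by geminin. Cdt1 read 227, 238 and 232 in wt and 226, 211 and 199 in Matn4-/- cells. The groups did not overlap, by a narrow margin between the lowest wt and the highest Matn4-/- reading. The log2 difference was -0.13 (interval -0.31 to 0.04, adjusted p = 0.945). Cdc6, the ATPase that loads the ring with CDT1, lay above background on 4 of 6 arrays (wt mean 127 ± 8.15, Matn4-/- mean 135 ± 9.62, SD, n = 3 each), and its 3 kept probes were at 0.09, 0.09 and 0.12. The dimmer probes, at 0.09 and 0.12, were above background on 3 and 2 of the 6 arrays.

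The 6 subunits of the MCM ring lay above background on all arrays and close to 0 in their differences. They ranged from -0.10 for Mcm7 to 0.13 for Mcm2, 3 higher and 3 lower, though Mcm6 and Mcm7 changed sign with the mean over all kept probes (-0.05 and 0.03) and Mcm3, Mcm5 and Mcm6 with 1 array left out. The interval of each lay within -0.5 and 0.5. The brightest probe of Mcm4 read 1118, 1048 and 864 in wt and 965, 998 and 870.1 in Matn4-/- cells, with the third replicate lowest in both genotypes. Mcm5 read 672, 849 and 719 in wt and 705, 742 and 731 in Matn4-/- cells, where wt replicate 2 stood above the rest. Mcm6 read 694, 672 and 678 in wt and 639, 708 and 716 in Matn4-/- cells, and its readings of both genotypes were interleaved. Mcm6 lies within 10 Mb of Ptprc, and its log2 difference was 0.01 (interval -0.16 to 0.19). Mcm2 read 287, 282 and 311 in wt and 338, 363 and 271 in Matn4-/- cells, so that Matn4-/- replicates 1 and 2 exceeded all wt readings while replicate 3 lay below them. Without Matn4-/- replicate 3 the log2 difference of Mcm2 was 0.26 (adjusted p = 0.584 in the limma fit).

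Mcm10, a partner of the activated helicase and not part of the ring, was lower on all Matn4-/- arrays. Its brightest probe read 166, 146 and 158 in wt and 136, 137 and 145 in Matn4-/- cells, and 5 of the 6 readings were above background. The gap between the groups was narrow, with a log2 difference of -0.17 (interval -0.35 to 0.01, adjusted p = 0.917). The second kept probe stood at -0.09, its readings overlapped, and it was above background on 1 of 6 arrays.

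**Figure D4:**
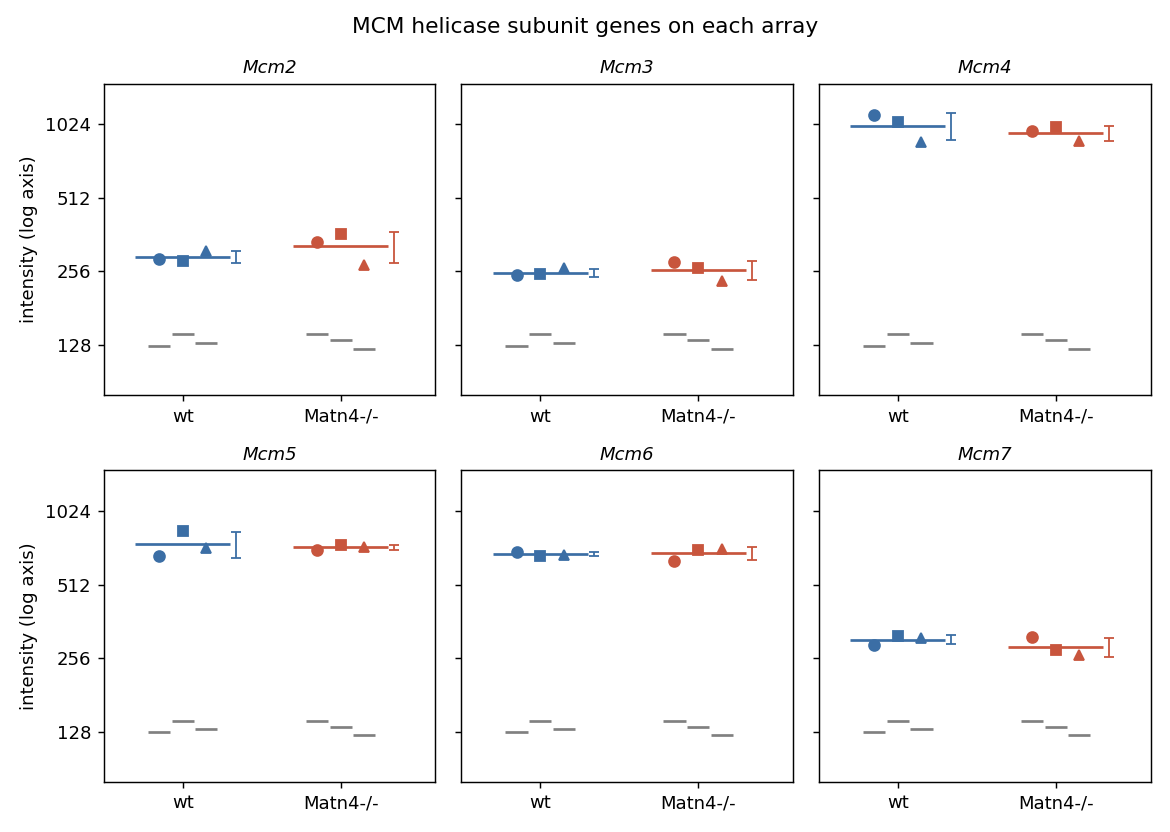
Intensity on a log axis (y) for the 6 genes of the MCM ring in wt (blue) and Matn4-/- cells (red), with 1 point per array, horizontal bars for the mean, error bars for the SD (n = 3 each) and grey ticks for the highest Y-linked reading of each array. All readings lie above the grey ticks, and the genotypes overlap in each panel.

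The 4 activators of the helicase read lower in Matn4-/- cells by amounts within the spread between replicates, and only Gins1 did so under each alternative that tested it. Cdc45, Gins2 and Gins3 changed sign with 1 array left out, reaching 0.01, 0.07 and 0.04. Gins2 also did so with array weights (0.03) and with the mean over all kept probes (0.01). Gins1 read 207, 188 and 159 in wt and 167, 198 and 142 in Matn4-/- cells, with Matn4-/- replicate 3 the lowest and wt replicate 1 the highest reading. Its log2 difference was -0.13 (interval -0.44 to 0.19). Gins2, Gins3 and Cdc45 stood at -0.05, -0.02 and -0.03, and each kept overlapping groups. A second kept probe of Gins2 stood at 0.07 and a brighter one listed under a clone name at -0.11, so the direction of that gene depended on the probe.

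Among the polymerases, Pold1 encodes the catalytic subunit of the lagging-strand polymerase. Pold1 read 257, 298 and 282 in wt and 317, 302 and 201 in Matn4-/- cells, where Matn4-/- replicate 3 was the lowest of the 6 and the other Matn4-/- readings were the highest. The log2 difference was -0.06 (interval -0.43 to 0.32), and 0.15 without that array. Prim1, the catalytic subunit of primase, read 134, 123 and 127 in wt and 142, 134 and 161 in Matn4-/- cells. Its log2 difference was 0.18 (interval -0.02 to 0.38, adjusted p = 0.928), the groups overlapped at wt replicate 1 and Matn4-/- replicate 2, and 3 of its readings were above background. Pole, of the leading-strand polymerase, stood at 0.00 (interval -0.18 to 0.19). Pola1, the catalytic subunit of the polymerase that extends primers, lay at or below background on all 6 arrays (95.8 to 115) and was not tested.

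The clamp loader opens the PCNA ring and closes it around DNA. Rfc2 read 1095, 1221 and 1071 in wt and 1134, 1071 and 1059 in Matn4-/- cells with its brightest probe, a log2 difference of -0.05 (interval -0.24 to 0.13). Its 3 other kept probes stood at 0.05, -0.09 and -0.27, and the last of these rested on wt replicate 1 (289 against 163 and 198 in the other wt samples). Rfc3 read 161, 162 and 177 in wt and 200.2, 182 and 166 in Matn4-/- cells, with a log2 difference of 0.13 (interval -0.07 to 0.34). Rfc4 and Rfc5 stood at 0.10 and -0.02, and the second kept probe of Rfc4 at -0.09. The only probe of Pcna, a gene used widely to mark proliferating cells, was above background on 1 of 6 arrays (wt mean 124 ± 4.48, Matn4-/- mean 126 ± 11, SD, n = 3 each).

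Fen1 removes the flaps of Okazaki fragments and Lig1 seals the nicks between them. Fen1 read 226, 259 and 238 in wt and 197, 222 and 186 in Matn4-/- cells. Its Matn4-/- readings all lay below its wt readings. The group values were wt mean 241 ± 16.6, Matn4-/- mean 202 ± 18.9 (SD, n = 3 each), a log2 difference of -0.26 ± 0.09 (SE, interval -0.47 to -0.05), which did not pass over all genes (limma adjusted p = 0.828). Lig1 read 338, 301 and 299 in wt and 324, 296 and 264 in Matn4-/- cells, and its log2 difference was -0.09. The other 3 kept probes of Lig1 went both ways, at 0.02, 0.05 and -0.13, and the readings of the last did not overlap.

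Tipin travels with the fork as part of the protection complex, and Rpa2 is a subunit of the protein that coats single strands. Tipin read 249.6, 238 and 191 in wt and 239, 226 and 248 in Matn4-/- cells, with wt replicate 3 as the lowest value. Their log2 differences were 0.08 and -0.04, with intervals of -0.17 to 0.33 and -0.25 to 0.18.

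In nucleotide supply, the large and small subunits of ribonucleotide reductase are encoded by Rrm1 and Rrm2. The brightest probe of Rrm1 read 712, 839 and 781 in wt and 784, 717 and 728 in Matn4-/- cells, and its readings overlapped (log2 difference -0.06, interval -0.26 to 0.13). A second kept probe of Rrm1 read 371, 402 and 383 in wt and 293, 284 and 288 in Matn4-/- cells. There the Matn4-/- readings all lay below the wt readings, the log2 difference was -0.42 ± 0.07 (SE), and the probe did not pass when each of 23118 kept probes was tested alone (limma adjusted p = 0.216, where 0.0476% passed). The third kept probe stood at 0.02. Rrm2 read 356, 354 and 382 in wt and 293, 359.6 and 363 in Matn4-/- cells on its brightest probe, and both of its kept probes had Matn4-/- replicate 1 as the lowest value (-0.11 and -0.20 in log2 difference).

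Tk1, the thymidine kinase of the salvage pathway, had the widest spread between arrays of 1 genotype. Its brightest probe read 206, 191 and 187 in wt and 311, 177 and 181 in Matn4-/- cells, and its second kept probe read 152, 179 and 158 in wt and 226, 158 and 139.5 in Matn4-/- cells. Matn4-/- replicate 1 was the highest reading on both probes, and the other Matn4-/- readings lay within or below the wt range. The log2 difference of 0.15 (interval -0.30 to 0.59) was -0.12 without that array. Tyms, which makes thymidylate from deoxyuridylate, was higher on all 4 of its kept probes, by 0.02 to 0.16, with overlapping groups on each.

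Among the chromatin factors, Uhrf1 recruits the maintenance DNA methyltransferase to newly copied DNA. Uhrf1 read 475, 494 and 494 in wt and 517, 604 and 509 in Matn4-/- cells. All Matn4-/- readings lay above the wt readings, with a log2 difference of 0.15 (interval -0.05 to 0.35, adjusted p = 0.939), and its second probe stood at 0.12 with overlapping readings. That second probe was above background on 4 of 6 arrays. Chaf1a and Chaf1b, of the chromatin assembly factor that deposits histones behind the fork, stood at 0.04 and 0.05. Slbp, which binds the stem-loop of histone transcripts, lay at or below background on all 6 arrays (99.2 to 114) and was not tested.

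The regulators of S phase entry showed no common direction. E2f1, which encodes an E2F transcription factor, lies on chromosome 2 within 10 Mb of Matn4. It read 355, 298 and 212 in wt and 208, 262 and 243 in Matn4-/- cells, and the range of the wt readings held all Matn4-/- readings but that of replicate 1. Its log2 difference was -0.25 (interval -0.65 to 0.15, adjusted p = 0.98). Dtl, the substrate receptor of the ubiquitin ligase that removes CDT1 in S phase, stood at 0.16 (interval -0.11 to 0.43), with Matn4-/- replicate 2 the highest of its readings. A kept probe listed under a clone name of Dtl, brighter over the 6 arrays and above background on all of them, stood at -0.06, so the direction of Dtl depended on the probe. The E-type cyclins lay above background on 2 of 6 arrays each, Ccne1 (wt mean 131 ± 4.33, Matn4-/- mean 131 ± 6.67) and Ccne2 (wt mean 120.5 ± 8.52, Matn4-/- mean 122 ± 16) alike (SD, n = 3 each).

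The array set the floor for part of the list. Above background on all 6 arrays were 30 members, 11 were above on some, and 3 (Orc1, Pola1 and Slbp) on none. These 3 were also those outside the brighter 50% of probes that entered the test. The dimmest member tested had a geometric mean of 121 and the brightest untested one of 117, on either side of the limit of 119. No fold is given for these 3.

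Members varied between arrays of 1 genotype about as much as other genes. The median pooled SD within genotypes was 0.13 on the log2 scale, beside 0.11 over all genes tested. The widest were Tk1 (0.33), E2f1 (0.29), Orc6 (0.27), Pold1 (0.27) and Gins1 (0.22), and Ccne1, Rfc4 and Mcm6 had the lowest values among those tested (0.06, 0.06 and 0.07). Array by array, the median deviation of the 41 members from their own means was 0.01, 0.00 and -0.03 on wt replicates 1 to 3 and 0.05, 0.02 and -0.06 on Matn4-/- replicates 1 to 3. Over all genes tested, the same medians for the Matn4-/- arrays were 0.02, 0.00 and -0.05. Members and all genes alike had their highest median on Matn4-/- replicate 1 and their lowest on replicate 3.

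Probes of 1 gene often differed by as much as the genotypes did. Of the 20 members with more than 1 kept probe, 10 had probes on both sides of 0. The median range between probes of a gene was 0.11 on the log2 scale, and the widest was 0.44, for Rrm1. Over the 75 kept probes of members, 7 had groups that did not overlap (9.33%), beside 10.4% of all kept probes. These were the brightest probes of Orc3, Uhrf1, Cdt1, Fen1 and Mcm10 and further probes of Rrm1 and Lig1. For Orc3, Cdt1 and Fen1 no second probe carried the symbol.

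**Figure D5:**
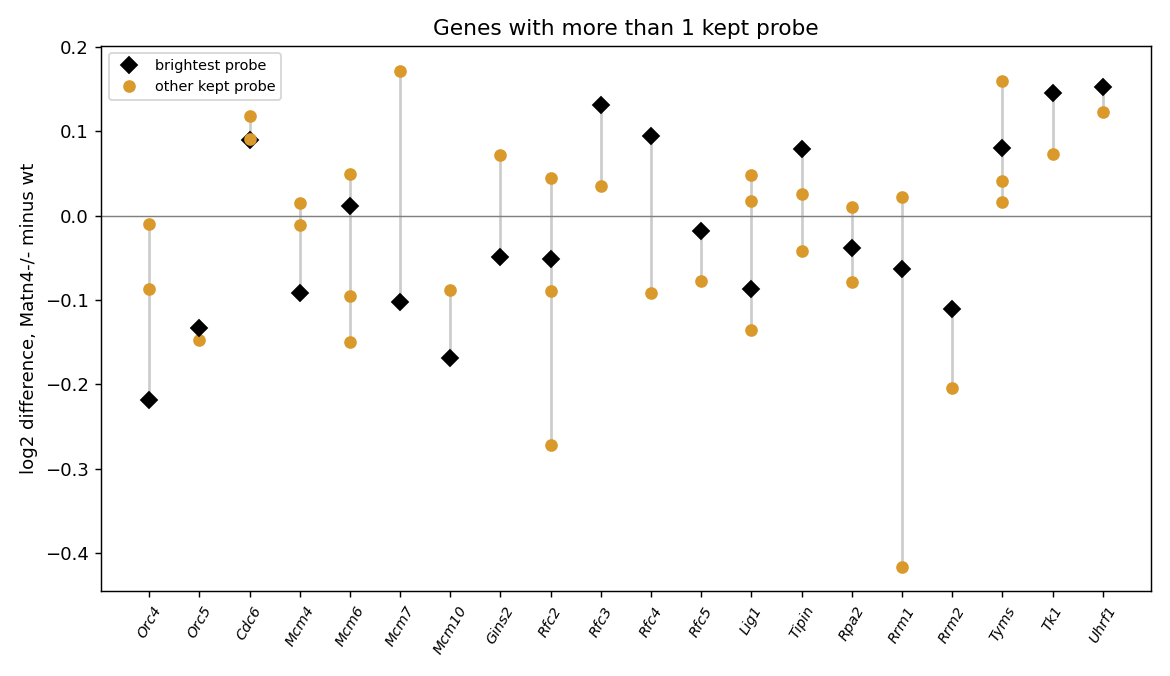
Log2 difference, Matn4-/- minus wt (y axis), of every kept probe for the 20 replication genes with more than 1 (x axis), with black diamonds for the brightest probe and orange circles for the others. Probes lie on both sides of 0 in 10 genes, and the second Rrm1 probe at -0.42 lies farthest from the brightest probe of its gene.

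By the gene table the members lie on 15 chromosomes, 5 of them on chromosome 2 with Matn4 (Orc4, Mcm10, Pcna, Gins1 and E2f1). Of these 5, 4 were lower in Matn4-/- cells, where 6807 of all 12764 genes tested were lower. Their log2 differences were -0.22 for Orc4, -0.25 for E2f1, -0.17 for Mcm10 and -0.13 for Gins1, and Pcna stood at 0.02. None of the 5 passed the test, and only E2f1 lies within 10 Mb of Matn4.

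None of the further genes of the pathway passed either. Of 104 listed, 86 were tested, 47 were higher and 39 lower, and 0 passed. Their median log2 difference was 0.01. Their groups did not overlap in 5 (5.81%), beside 10.5% of all genes tested. Licensing control genes were 4 higher and 7 lower of 11, with Wdhd1, a fork-associated partner of the primase complex, at -0.14, Gmnn, the CDT1 inhibitor geminin, at -0.10 and Donson at 0.07. Wdhd1, Gmnn and Donson were above background on 3, 1 and 4 of the 6 arrays. Fork proteins were 12 higher and 7 lower of 19. Among these, Timeless, the partner of TIPIN, had a log2 difference of -0.20 (wt mean 282 ± 24.4, Matn4-/- mean 245 ± 21.6, SD, n = 3 each, limma adjusted p = 0.924), and Pold3 and Rfc1 stood at -0.17 and 0.16.

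Nucleotide supply genes were 10 higher and 3 lower of 13. Ctps, which makes CTP, had a log2 difference of 0.30 (wt mean 282 ± 49.1, Matn4-/- mean 346 ± 51.7, SD, n = 3 each, limma adjusted p = 0.928), and Rrm2b and Dctpp1 stood at 0.14 and 0.09. Genes of chromatin behind the fork were 3 higher and 5 lower of 8, with the histone chaperone gene Nasp at 0.20, Rbbp4 at -0.16 and the mismatch repair gene Msh6 at -0.10. Further G1/S regulators were 11 higher and 10 lower of 21, with E2f3 at 0.15, the CDK inhibitor Cdkn1a at 0.12 and E2f2 at 0.18. Cdkn1a was above background on 2 of the 6 arrays, both Matn4-/-, and Rbbp4 on 4. The limit differs between arrays, and the readings of Cdkn1a overlapped (115 to 131 in wt, 130 to 139 in Matn4-/- cells). Genes of G2/M and mitosis, which follow S phase, were 7 higher and 7 lower of 14, with the mitotic kinase gene Pbk at 0.29, Bub1b at 0.10 and Birc5 at 0.12. Of the 86 further genes tested, 0 stood at an unadjusted p under 0.05 in the limma fit, where 5.59% of all genes tested did.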

How the data were processed

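The authors deposited linear-scale intensities, 1 for each probe of each array. No source used here states how they normalized them or treated background. A second deposited table, not normalized, has 12 value columns whose names match no label, and it was not used. Per the labels' protocols, amplification used the NuGEN Ovation Pico WTA system, and targets carried biotin.

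Symbols came from the platform table, updated through Entrez identifiers or accessions. Each gene was represented by the brightest probe under its symbol, which left out probes still listed under a clone name, and the brighter 50% of 46237 probes entered the test (23118 probes, 12764 genes). The log2 of each value went into a limma model (version 3.58.1, R 4.3.3, lmFit and eBayes) with a term for genotype alone. Adjusted p-values are Benjamini-Hochberg values over all genes tested, with 0.05 as the threshold. The fit was tested on simulated data. Python 3.11.15 handled tables and plots.

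The members and all further gene lists were chosen with earlier results of these data known, so they are described by counts and medians, without a test of the list. Values on every array are given for members whose groups did not overlap, the brightest member and the member with the smallest p of each role, and the 5 with the widest spread. Orc4, Mcm2, Mcm5, Mcm6 and the further probes described were added after their values had been seen. From each further list the 3 genes with the smallest p are named. The 17 alternatives cover filters, normalization, background, probe choice and names, the replicate block, array weights, moderation and leaving out each array. Testing each kept probe alone, and counting members without Matn4-/- replicate 3, were chosen after seeing the data.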

Additional observations from a re-analysis of the deposited data

How the results depend on the processing

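No member passed the threshold under any of the 17 alternatives, nor when each kept probe was tested alone, a setting chosen after seeing the data. The median log2 difference of the members was -0.018 and moved by less than the spread between arrays (SD 0.04), except without Matn4-/- replicate 3, where it was 0.034. With 1 array left out it lay between -0.037 and 0.034. The number of genes past the threshold over the whole table was 7, but 1 with the background subtracted, and 3 to 7 with 1 array left out (3 without Matn4-/- replicate 1 and 4 without wt replicate 1). When each of 23118 kept probes was tested alone, 11 probes passed, a count of probes and not of genes. Orc3 was higher in all 17 alternatives, by 0.57 to 1.02. Without Matn4-/- replicate 3, a count chosen after seeing the data, members whose groups did not overlap went from 5 to 13 and those at an unadjusted p under 0.05 from 2 to 3. Over all genes tested these shares went from 10.5% to 23.2% and from 5.59% to 6.75%. The count of genes without overlap cannot fall when an array is left out.

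Of 444 member values under the alternatives that kept all arrays, 12 changed sign. With quantile normalization these were Rfc5 (0.0058) and Ccne1 (-0.0043). With cyclic loess these were Orc6 (0.0047) and Rfc5 (0.012). With the background subtracted these were Pole (-0.11) and Ccne1 (-0.031). With the mean over all kept probes these were Mcm6 (-0.046) and Mcm7 (0.035) and Gins2 (0.011). With array weights these were Orc6 (0.063) and Gins2 (0.034) and Pold1 (0.034). The cause was not tested. With 1 array left out, 21 members changed sign at least once. Their ranges were Ccne1 (-0.030 to 0.042), Ccne2 (-0.066 to 0.12), Cdc45 (-0.10 to 0.014), Chaf1a (-0.040 to 0.13), Chaf1b (-0.0026 to 0.14), Gins2 (-0.15 to 0.071), Gins3 (-0.094 to 0.044), Mcm3 (-0.025 to 0.11), Mcm5 (-0.11 to 0.062), Mcm6 (-0.018 to 0.064), Orc2 (-0.012 to 0.13). The others were Orc6 (-0.17 to 0.12), Pcna (-0.047 to 0.071), Pold1 (-0.18 to 0.15), Pole (-0.041 to 0.064), Rfc2 (-0.089 to 0.0062), Rfc5 (-0.11 to 0.028), Rpa2 (-0.10 to 0.034), Tipin (-0.037 to 0.15), Tk1 (-0.12 to 0.29), Tyms (-0.0022 to 0.17). The deviations of same-numbered samples had correlations of 0.016, 0.059 and 0.061 over 12764 genes, and those of other pairs -0.083 to 0.021. These small values do not settle whether the samples were paired, and the main fit did not pair them. For numbers 2 and 3 the same-numbered sample was the closest, while wt replicate 1 was closer to Matn4-/- replicate 2 (0.021). Whether same-numbered samples shared recipients is not known from the labels. With the replicate number as a block, 9 genes and 0 members passed, the median of the members was -0.018 and Orc3 had an adjusted p of 0.185 in the limma fit. Signal over background limits the dim members, of which 11 were above the Y-linked probes on some arrays and 3 on none.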
